A study of Mus musculus with 6 samples.

Results

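The RNAs described here are 9 noncoding transcripts. Most of them act in the nucleus or nucleolus, or lack a poly(A) tail. These are the ribosomal RNA precursor Rn45s, the ribozyme RNAs Rmrp and Rpph1, the telomerase RNA Terc, and the long noncoding RNAs Malat1, Neat1 and Kcnq1ot1. The others are Snhg1 and Gas5, included as small nucleolar RNA (snoRNA) host genes. All 9 were chosen by gene symbol from the 24421 genes of the count table and had enough counts to be tested. The samples were 3 of Ube3d-KO cells and 3 of wild-type (WT) cells, all of the 3T3-L1 line, a mouse embryonic fibroblast line used as a model of preadipocytes. Cells of both genotypes were undifferentiated and growing, in high-glucose medium with serum, and the labels name no treatment. The deleted gene codes for a ligase of the ubiquitin system that binds CPSF73, the endonuclease that cuts precursor mRNAs at their 3′ ends. The labels leave unstated whether the knockout line is 1 clone. The titles number biological replicates without saying which cultures were kept apart, so p-values here reflect only the scatter among these 6 samples.

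Cells end these RNAs in different ways. RNA polymerase I makes the ribosomal RNA precursor, which is cleaved into mature ribosomal RNAs. RNA polymerase III makes Rmrp, the RNA of RNase MRP, which takes part in cutting the ribosomal RNA precursor, and Rpph1, the RNA of RNase P, which removes the 5′ leader of precursor tRNAs. RNA polymerase II makes the others. Terc is trimmed back to a fixed 3′ end and is kept by the proteins of H/ACA snoRNAs. The 3′ ends of Malat1 and of the long form of Neat1 are made by RNase P, not by the cleavage and polyadenylation machinery, and are closed by a triple helix. Kcnq1ot1 is a long unspliced antisense RNA that silences imprinted genes in cis, and Snhg1 and Gas5 are spliced RNAs whose introns are processed into snoRNAs. Because ribosomal RNA was depleted and poly(A) was not selected, the libraries can hold RNAs of every one of these kinds.

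The sequences below show the ends and elements by which these RNAs differ from ordinary mRNAs. They come from the GENCODE M21 transcripts and, for Gas5 and Snhg1, from the RefSeq promoter table, both of the GRCm38 build, and read 5′ to 3′ as DNA letters. Terc is listed at chr3:96414437-96414833 on the minus strand, and its first and last 100 bases are shown (chr3:96414734-96414833 and chr3:96414437-96414536). Capitals mark the template CTAACCCT, from which telomere repeats are copied, and the ACA box that lies 3 bases from the 3′ end.
Terc first bases: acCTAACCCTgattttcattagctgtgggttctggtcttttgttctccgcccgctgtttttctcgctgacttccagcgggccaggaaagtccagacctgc
Terc last bases: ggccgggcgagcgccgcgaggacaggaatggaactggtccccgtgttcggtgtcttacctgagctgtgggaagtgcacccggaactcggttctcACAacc

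Rmrp (chr4:43492785-43493059, minus strand) and the first 300 bases of Rpph1 (chr14:50807468-50807767, minus strand) belong to related RNAs that share several protein partners, and capitals mark the 2 longest runs of identical bases between them, each of 9 bases.
Rmrp: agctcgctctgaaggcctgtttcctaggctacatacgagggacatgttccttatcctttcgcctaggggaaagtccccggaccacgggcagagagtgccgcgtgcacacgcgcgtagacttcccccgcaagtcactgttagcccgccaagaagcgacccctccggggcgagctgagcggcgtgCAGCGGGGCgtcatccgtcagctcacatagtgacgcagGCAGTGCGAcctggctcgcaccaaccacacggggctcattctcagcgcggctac
Rpph1: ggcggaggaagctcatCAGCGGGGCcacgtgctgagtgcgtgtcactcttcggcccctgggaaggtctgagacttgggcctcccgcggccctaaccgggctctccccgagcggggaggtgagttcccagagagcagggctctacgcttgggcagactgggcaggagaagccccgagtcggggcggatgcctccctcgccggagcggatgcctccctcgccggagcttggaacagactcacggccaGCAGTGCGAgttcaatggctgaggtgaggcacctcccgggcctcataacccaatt

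The 3′ regions of Malat1 (chr19:5795913-5796077, minus strand) and of the long Neat1 transcript (chr19:5824708-5824807, minus strand) carry T-rich and A-rich stretches of the kind that form the triple helix. Capitals mark 2 T-rich runs and the A run in Malat1, and 1 T-rich run and the A-rich end in Neat1. The Neat1 stretch also holds an earlier T-rich run, tttctttt, that is not marked. In Malat1 the A run of 12 bases is followed by the tRNA-like small RNA that RNase P cuts free. The GENCODE transcript goes on for 298 bases past the A run, so the gene's count can include reads from beyond the RNase P cut.
Malat1: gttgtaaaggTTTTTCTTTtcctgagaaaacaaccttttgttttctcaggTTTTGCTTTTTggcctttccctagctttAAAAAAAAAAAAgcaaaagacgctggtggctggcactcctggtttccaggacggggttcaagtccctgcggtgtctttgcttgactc
Neat1: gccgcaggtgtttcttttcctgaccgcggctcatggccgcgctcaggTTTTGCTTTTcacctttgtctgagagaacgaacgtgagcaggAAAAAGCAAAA

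Gas5 (chr1:161035126-161035205, plus strand) and Snhg1 (chr19:8723447-8723526, plus strand) are transcribed from genes known for a pyrimidine tract at the start of the RNA, as in ribosomal protein mRNAs. The stretches shown hold 40 bases before and 40 bases from the listed start, and capitals mark the longest run of C and T within 20 bases of it. A run of at least 6 such bases, as in Gas5, is found in 37.5% of the 32851 promoters of the table, and one of at least 9, as in Snhg1, in 10.7%.
Gas5: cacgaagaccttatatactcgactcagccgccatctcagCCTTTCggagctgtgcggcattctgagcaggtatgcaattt
Snhg1: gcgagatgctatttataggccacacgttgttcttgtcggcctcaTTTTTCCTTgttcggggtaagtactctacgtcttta

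Depth and the libraries as a whole were checked first. Gene counts per library were between 25267434 and 28042970 in Ube3d-KO and between 23767181 and 29389480 in WT. Ube3d, listed as Ube2cbp, had 56, 43 and 53 counts in Ube3d-KO, against 145, 229 and 173 counts in WT. Its level was 1.90 ± 0.32 CPM in Ube3d-KO and 6.78 ± 0.89 CPM in WT (counts per 1000000 gene counts, mean ± SD, n = 3 each). Fibroblast markers summed to 14488 to 14869 CPM in Ube3d-KO and 16623 to 16652 CPM in WT. Of 13 tested, 3 rose and 9 fell, beside 30.3% and 31.2% of all tested genes. The markers of other cell types summed to at most 7.06 CPM in Ube3d-KO and at most 8.23 CPM in WT, and Epcam was at 0 in all libraries. In bulk RNA, fewer cells with a transcript and less of it per cell cannot be told apart.

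WT replicate 2 stood apart in Neat1, Kcnq1ot1 and Malat1. Over the 8853 genes that averaged 10 CPM or more, its level relative to the mean of WT replicates 1 and 3 was highest for Neat1, at 2.87-fold. Kcnq1ot1 came 5th in that order at 1.46-fold and Malat1 came 9th at 1.37-fold. Over all these genes the library was not unusual, with a root-mean-square log2 difference of 0.088 from the rest of its group, where the 6 libraries ran from 0.077 to 0.090. Neat1 was the 1 gene of the 8853 that lay at least 1.5-fold above both other WT libraries, and no gene lay as far below them. What set this library apart was not tested, and results that change without it are given both ways.

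Terc was 1.96-fold higher in Ube3d-KO cells, Rpph1 and Rmrp were slightly lower, and Rn45s was higher with a call at the edge of the threshold. The other 5 RNAs were not called. In the fit over all 12947 tested genes, 2 of the 9 members were called higher and 2 lower at an adjusted p under 0.05 (edgeR quasi-likelihood test, Benjamini-Hochberg adjustment), beside 30.3% and 31.2% of all tested genes, or 61.4% in either direction. The members' median log2 fold change was 0.06, and that of all tested genes was 0.004. Without WT replicate 2, 4 members were called higher and 2 lower, and 58.4% of all tested genes were called in either direction, 28.5% higher and 29.8% lower. The 2 genotypes did not overlap in CPM for 4 of the 9 members, beside 63.8% of tested genes. All Ube3d-KO libraries lay above all WT libraries for 3 members (32.8% of tested genes) and below them for 1 (31% of tested genes). Without WT replicate 2, the genotypes did not overlap for 7 members, beside 70.1% of tested genes. With all 6 libraries the members' shares were near or below those of genes at large, and without WT replicate 2 they were above them, except that the share called lower was below that of genes at large.

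**Figure D1:**
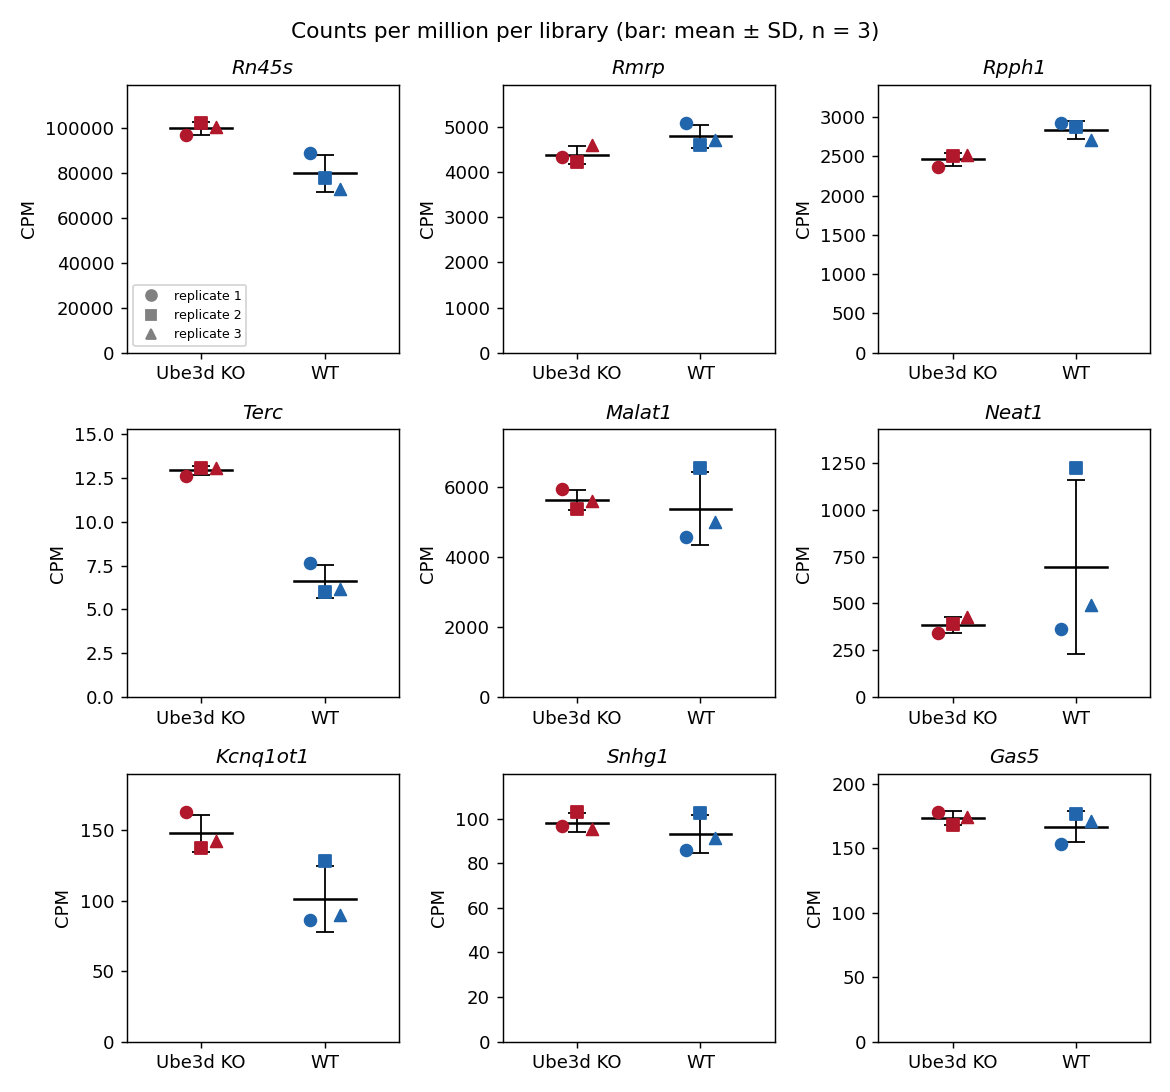
CPM of each RNA in each library, with Ube3d-KO left of WT, a marker per replicate number, and the mean ± SD of 3 libraries in black. The Terc values of Ube3d-KO lie at 12.6 to 13.1 CPM above all WT values, and the WT replicate 2 value of Neat1 lies at 1225 CPM, far from the other libraries.

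The RNAs spanned a wide range of levels. Per kb of listed exon, and as the mean of the Ube3d-KO libraries, the order was Rn45s at 17123 CPM per kb, Rmrp at 15950, Rpph1 at 7568, Malat1 at 808, Snhg1 at 206.3, Gas5 at 67.9, Terc at 32.6, Neat1 at 18.6 and Kcnq1ot1 at 1.77 CPM per kb. In WT the order was Rmrp at 17451 CPM per kb, Rn45s at 13696, Rpph1 at 8713, Malat1 at 772, Snhg1 at 195.7, Gas5 at 65.3, Neat1 at 33.4, Terc at 16.6 and Kcnq1ot1 at 1.22 CPM per kb. Neighbours in these orders overlapped in their libraries in 2 places, Rn45s with Rmrp in Ube3d-KO and Neat1 with Terc in WT. Kcnq1ot1 had at most 4118 counts in a library, spread over 83.4 kb.

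**Figure D2:**
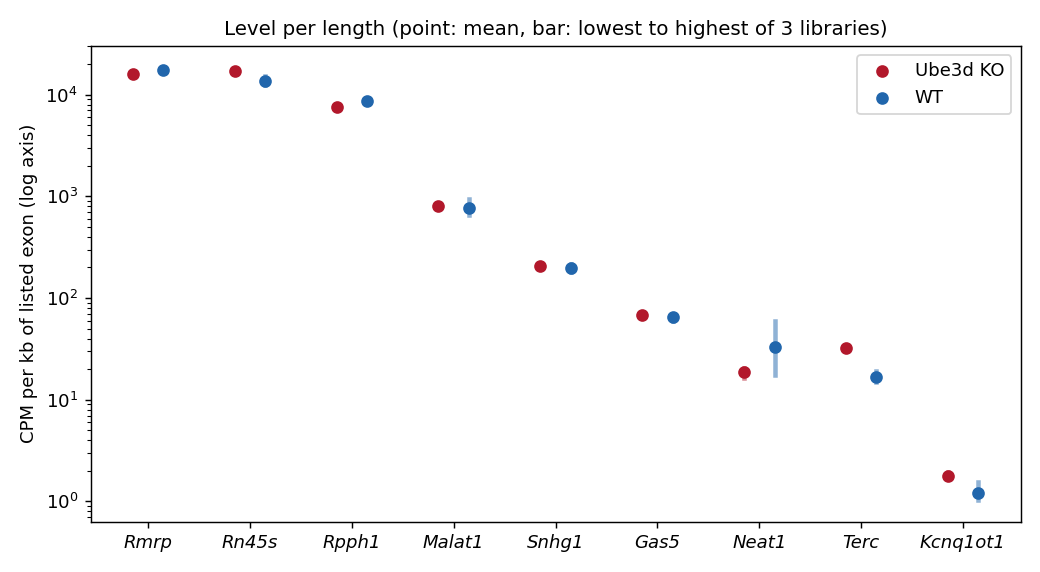
Level per kb of listed exon on a log axis, with the mean as a point and the lowest to highest of 3 libraries as a bar, Ube3d-KO left of WT. Terc lies above Neat1 in Ube3d-KO, and the 2 overlap in WT, where the Neat1 bar runs from 17.5 to 59.0 CPM per kb.

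Rn45s took the largest share of counts of the 9. Its level was 96765, 102245 and 100620 CPM in the Ube3d-KO libraries, against 89059, 77818 and 72797 CPM in the WT libraries. Every Ube3d-KO library lay above every WT library, and WT replicate 1 was the closest to them. The difference was 1.24-fold (log2 0.31, SE 0.10, edgeR adjusted p = 0.0466), with a 95% interval on the log2 scale of 0.05 to 0.57. The call was lost when any 1 library other than WT replicate 1 was left out, with adjusted p-values of up to 0.130. Without WT replicate 1 the log2 change was 0.40 (edgeR adjusted p = 6.0e-18). As a share of the library, the mean was 9.99% ± 0.28 in Ube3d-KO and 7.99% ± 0.83 in WT (SD, n = 3 each, two-sided exact permutation p = 0.10, the smallest that 3 against 3 samples allow, adjusted p = 0.20 over 4 comparisons of single values). The row counts 1 stretch on chromosome 17 (chr17:39842997-39848829, plus strand) for a gene with many copies. Its count does not separate the precursor from ribosomal RNA that escaped depletion.

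Of 21 tested genes of RNA polymerase I and its initiation factors, 1 rose and 7 fell, with a median log2 change of −0.05 (edgeR, adjusted p under 0.05 here and in the lists below). The share that fell is near the 31.2% of all tested genes, and the share that rose is below their 30.3%. The lists below compare with 30.3% of all tested genes higher and 31.2% lower, or 28.5% and 29.8% without WT replicate 2. Polr1a, the largest subunit, fell 1.18-fold, to 212 ± 1.7 CPM in Ube3d-KO against 248 ± 5.7 CPM in WT. Polr1d, a small subunit, rose 1.12-fold (edgeR adjusted p = 9.7e-04). Of 38 tested genes of the box C/D snoRNP and of ribosomal RNA processing, 4 rose and 18 fell (median −0.10), and 2 rose and 19 fell without WT replicate 2. The core snoRNP protein gene Nop56 fell 1.45-fold (log2 −0.54, SE 0.03) and the exonuclease gene Xrn2 fell by 0.58 on the log2 scale (SE 0.03). Znhit6, a snoRNP assembly factor, rose 1.43-fold (log2 0.52, SE 0.06).

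Rmrp and Rpph1, the catalytic RNAs of RNase MRP and RNase P, were both a little lower. Rpph1 had 2361, 2505 and 2514 CPM in the Ube3d-KO libraries, against 2922, 2868 and 2705 CPM in the WT libraries. The genotypes did not overlap for Rpph1, and it fell 1.16-fold (log2 −0.21, SE 0.03, edgeR adjusted p = 8.9e-09). The call was kept in all 13 alternatives, with log2 changes of −0.25 to −0.18. Rmrp had 4332, 4223 and 4604 CPM in the Ube3d-KO libraries, against 5087, 4593 and 4717 CPM in the WT libraries. The highest Ube3d-KO value of Rmrp just passed the lowest WT value, that of WT replicate 2. Rmrp fell 1.10-fold (log2 −0.14, SE 0.04, edgeR adjusted p = 0.0045), a call that was lost without WT replicate 3 (log2 −0.16, edgeR adjusted p = 0.113) and with DESeq2 (log2 −0.14, adjusted p = 0.0627).

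The ratio of Rpph1 to Rmrp counts, which does not depend on library scaling, was 0.545, 0.593 and 0.546 in Ube3d-KO, against 0.574, 0.624 and 0.573 in WT. The groups overlapped, and the mean log2 ratio differed by −0.07 (exact permutation p = 0.30, adjusted p = 0.40). Parp2, a DNA repair gene, lies 175 bases from Rpph1 on the other strand. Parp2 fell with a log2 change of −0.33 (SE 0.07, edgeR adjusted p = 2.0e-05), to 17.5 ± 0.79 CPM in Ube3d-KO against 21.7 ± 1.1 CPM in WT. Chromosome 14 as a whole had a median log2 change of −0.11. Ccdc107, which lies 306 bases from Rmrp on the other strand, had a log2 change of −0.02 (edgeR adjusted p = 0.871).

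Of 10 tested protein subunits of RNase P and RNase MRP, 1 was higher and 3 were lower (median −0.06). Of all tested genes, 30.3% were higher and 31.2% lower. Without WT replicate 2, the subunits had 2 higher and 4 lower. Rpp40 fell 1.46-fold (log2 −0.54, SE 0.09), Pop4 1.24-fold and Rpp30 by 0.20 on the log2 scale. Pop5 rose 1.26-fold (log2 0.33, SE 0.08). Of 32 tested genes of RNA polymerase III and of the complexes that start its transcription, 8 rose and 11 fell (median −0.02). These shares are near the 30.3% and 31.2% of all tested genes. Snapc5, a subunit of the complex that binds the promoters of small nuclear RNA genes and of genes like Rmrp and Rpph1, fell 2.12-fold (log2 −1.09, SE 0.13), to 3.18 ± 0.03 CPM in Ube3d-KO against 6.71 ± 0.53 CPM in WT. Polr3k, a polymerase subunit, fell 1.48-fold, and Ssb, the La protein that binds the 3′ ends of polymerase III transcripts, fell 1.42-fold. Gtf3c5, a subunit of the initiation factor TFIIIC, rose 1.29-fold.

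Terc had the clearest difference of the 9. It had 12.6, 13.1 and 13.1 CPM in the Ube3d-KO libraries, against 7.66, 5.99 and 6.14 CPM in the WT libraries. These are 319, 356 and 367 counts in Ube3d-KO, against 182, 176 and 165 counts in WT. The groups were far apart, and the Ube3d-KO libraries lay close together, with a coefficient of variation of 2.05% in Ube3d-KO and 13.98% in WT. Terc rose 1.96-fold (log2 0.97, SE 0.10, 95% interval 0.78 to 1.16, edgeR adjusted p = 5.6e-14). The call was kept in all 13 alternatives, with log2 changes of 0.89 to 1.09. A rise at least as large was seen in 609 of the 12947 tested genes (4.7%), and a change at least as large in either direction in 8.09%.

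Terc lies on chromosome 3, where 450 of 643 tested genes were higher, 60 were lower and the median log2 change was 0.30. A log2 change at least as high as that of Terc was seen in 60 of those 643 genes. The nearest listed genes on either side, Fcgr1 at 120 kb and BC107364 at 18955 bases, had at most 9 counts and 0 counts in a library. The part of the chromosome in the change of Terc was not tested. The genes whose profile over the 6 libraries was nearest to that of Terc, again at 10 CPM or more, were Ptpn13 (root-mean-square difference 0.064 in centred log2 CPM) and Fbxw4 (0.078).

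Of 12 tested protein genes of telomerase and of H/ACA particles, 1 rose and 5 fell (median −0.09). Without WT replicate 2, 1 rose and 6 fell (median −0.11). The assembly factor gene Naf1 fell 1.32-fold (log2 −0.40, SE 0.04), and Nop10, a core protein gene, fell 1.29-fold. Nhp2, also a core protein gene, fell 1.10-fold, and Zcchc8, a subunit of the nuclear exosome targeting complex, fell 1.18-fold. Gar1, which codes for another core protein and lies on chromosome 3, rose 1.12-fold.

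Of 17 other short structured RNAs in the table, 9 had enough counts to be tested. Of these, 5 rose, 4 were not called, and the median log2 change was 0.47. Without WT replicate 2, 5 rose and 1 fell, the spliceosomal RNA gene Rnu12 (log2 −0.23, edgeR adjusted p = 0.0103). The small Cajal body RNAs, which guide the modification of spliceosomal RNAs, made up 4 of the 5. Scarna2 rose 1.74-fold (log2 0.80, SE 0.06), to 48.0 ± 0.46 CPM in Ube3d-KO against 27.4 ± 3.4 CPM in WT, and like Terc it lies on chromosome 3. Scarna9 rose 1.62-fold, Scarna13 1.47-fold and Scarna10 1.38-fold, on chromosomes 9, 12 and 6. Scarna13 lies inside the span of Snhg10 on the same strand, a snoRNA host gene that also rose. The listed lengths of Scarna9, Scarna2 and Scarna10 are 42, 61 and 71 bases. Their counts do not separate the mature RNA from longer RNA over the same bases. Rnu73b, on chromosome 3, rose 2.07-fold at 50, 51 and 50 counts in Ube3d-KO, against 21, 29 and 22 counts in WT. Scarna6 (log2 0.13) and Scarna17 (log2 0.01) were not called, nor were Rnu11, also a spliceosomal RNA gene (log2 −0.32), and Rnu12 (log2 −0.14) over all 6 libraries.

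**Figure D3:**
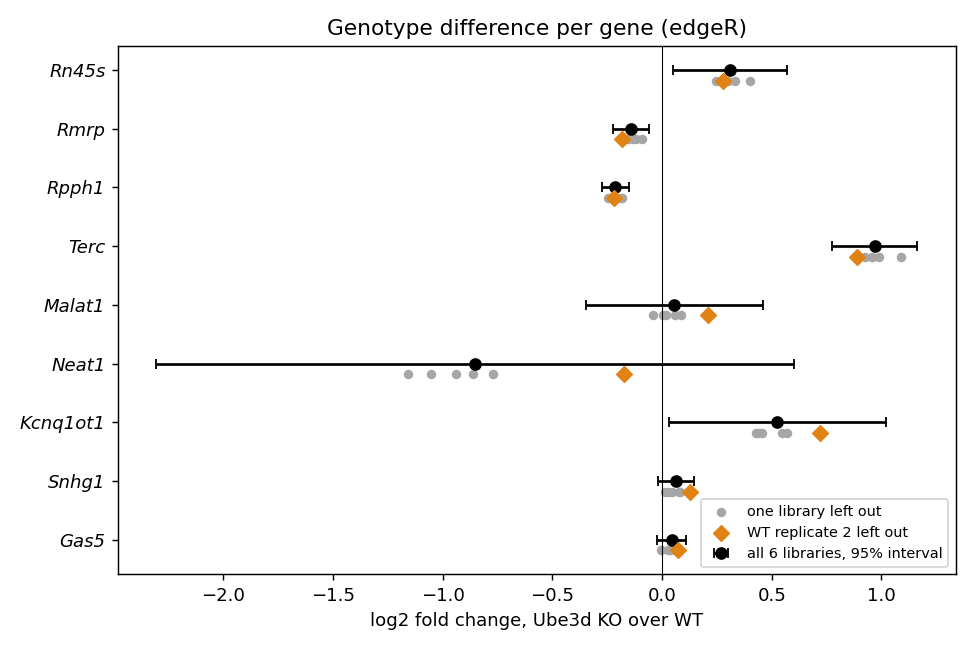
Log2 fold change of each RNA, Ube3d-KO over WT, with its 95% interval from all 6 libraries in black, values with 1 library left out in grey, and the value without WT replicate 2 in orange. The interval of Terc runs from 0.78 to 1.16, and that of Neat1 from −2.31 to 0.60.

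Malat1, a long RNA of nuclear speckles, did not differ beyond the spread of the WT libraries. It had 5952, 5370 and 5604 CPM in the Ube3d-KO libraries, against 4592, 6564 and 5024 CPM in the WT libraries. WT replicate 2 was the highest of the 6, and WT replicates 1 and 3 were the lowest. The log2 change was 0.06 (SE 0.15, 95% interval −0.35 to 0.46, edgeR adjusted p = 0.771). Without WT replicate 2 it was 0.21 (edgeR adjusted p = 2.8e-06), and without WT replicate 1 it was −0.04 (edgeR adjusted p = 0.832).

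Neat1, the RNA that builds paraspeckles, varied widely among the WT libraries. It had 340.0, 388 and 428 CPM in the Ube3d-KO libraries, against 363, 1225 and 491 CPM in the WT libraries. WT replicate 2 held 36003 counts and WT replicates 1 and 3 held 8638 and 13199, so the coefficient of variation was 11.4% in Ube3d-KO and 67.1% in WT. The log2 change was −0.85 (SE 0.53, 95% interval −2.31 to 0.60, edgeR adjusted p = 0.240). Without WT replicate 2 it was −0.17 (edgeR adjusted p = 0.511). The table lists 2 overlapping exon records for Neat1, of 20769 and 3185 bases, and the count does not tell the long form from the short polyadenylated form, which share their first bases.

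Malat1 and Neat1 lie 22039 bases apart on chromosome 19, and the ratio of Neat1 to Malat1 counts within a library was lower in every Ube3d-KO library. It was 0.0571, 0.0723 and 0.0763 in Ube3d-KO, against 0.0792, 0.187 and 0.0978 in WT. The lowest WT ratio, that of replicate 1, was close to the highest Ube3d-KO ratio. The mean log2 ratio differed by −0.73 (exact permutation p = 0.10, the smallest possible, and adjusted p = 0.20), and by −0.37 without WT replicate 2. The ratio does not show which of the 2 RNAs differs. Frmd8, 5.49 kb from Neat1, rose with a log2 change of 0.34 (SE 0.05). On chromosome 19, 200 of 472 tested genes were higher, 85 were lower and the median log2 change was 0.10.

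Protein genes of paraspeckles and nuclear speckles were mostly lower, with 3 higher and 14 lower of 23 tested (median −0.15). Matr3, which codes for a nuclear matrix protein that binds RNA, fell 1.24-fold (log2 −0.31, SE 0.03), to 319.6 ± 8.0 CPM in Ube3d-KO against 394 ± 15.6 CPM in WT. Tardbp fell 1.20-fold, and the splicing factor genes Srsf2 and Srsf1 1.20-fold and 1.19-fold. The counts were 2 higher and 14 lower without WT replicate 2.

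Kcnq1ot1 was higher in every Ube3d-KO library, but its call depended on WT replicate 2. It had 163, 138 and 143 CPM in the Ube3d-KO libraries, against 86.1, 128 and 90.1 CPM in the WT libraries. WT replicate 2 lay between its own group and the Ube3d-KO libraries. The log2 change was 0.53 (SE 0.18, 95% interval 0.03 to 1.02), which missed the threshold after adjustment (edgeR adjusted p = 0.0660). Without WT replicate 2 the difference was 1.65-fold (log2 0.72, edgeR adjusted p = 4.1e-12), and with all libraries DESeq2 gave 0.53 (adjusted p = 0.0129). The other 5 sets with 1 library left out gave no call, with log2 changes of 0.43 to 0.57.

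Kcnq1ot1 is listed at chr7:143213111-143296547 on the minus strand, inside Kcnq1, which is on the plus strand and has 1 of its 16 exon records within that span. Kcnq1 itself had 5 to 16 counts per library in either genotype (log2 −0.38, edgeR adjusted p = 0.430). Whether reads were counted by strand is not stated, so reads of the 2 genes cannot be told apart where they overlap. Of the other genes of this imprinted domain, those that Kcnq1ot1 is best known to silence were at or near the floor in both genotypes. Cdkn1c and Ascl2 had 0 counts in all 6 libraries, which allows up to 3 counts, or 0.126 CPM in the smallest library, by counting error alone. Phlda2 had at most 1 and Slc22a18 at most 4. Of the 8 genes of the domain that could be tested, 4 rose and 1 fell (median 0.13). Tnfrsf22 rose 1.24-fold (log2 0.31, SE 0.06), Osbpl5 1.22-fold, and Tnfrsf23 1.18-fold. Tssc4 rose with a log2 change of 0.20 (SE 0.07), and Cars, a tRNA synthetase gene, fell by 0.20 on the log2 scale (SE 0.03).

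**Figure D4:**
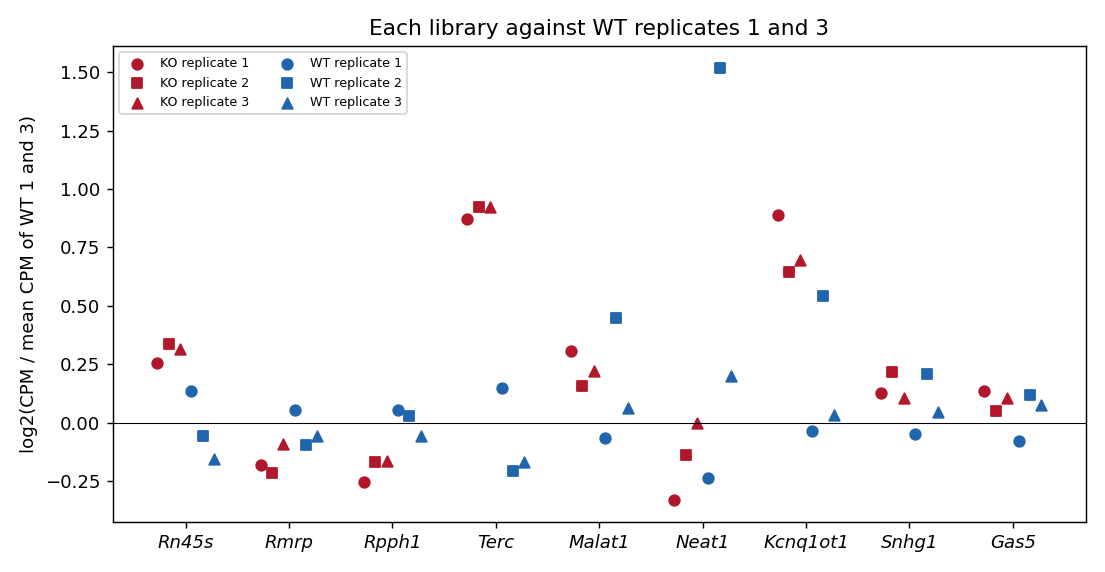
Log2 ratio of each library's CPM to the mean of WT replicates 1 and 3, with Ube3d-KO libraries in red and WT libraries in blue. WT replicate 2 stands high for Malat1, Neat1 and Kcnq1ot1, where its fold over WT replicates 1 and 3 is 1.37, 2.87 and 1.46, and not for Rmrp (0.937) or Rpph1 (1.02).

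Snhg1 and Gas5, the hosts of box C/D snoRNAs, had small differences and were not called. Gas5 had 178, 168 and 174 CPM in the Ube3d-KO libraries, against 153, 176 and 171 CPM in the WT libraries. The groups overlapped, and WT replicate 1 was the lowest of the 6. The log2 change of Gas5 was 0.04 (SE 0.03, edgeR adjusted p = 0.235), with a 95% interval of −0.02 to 0.11. Snhg1 had 96.6, 102.9 and 95.2 CPM in the Ube3d-KO libraries, against 85.7, 102.4 and 91.3 CPM in the WT libraries. WT replicate 2 lay among the Ube3d-KO libraries and the other 2 below them. The log2 change of Snhg1 was 0.06 (SE 0.04, 95% interval −0.02 to 0.15, edgeR adjusted p = 0.172), and without WT replicate 2 it was 0.13 (edgeR adjusted p = 0.0088).

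The profiles of Snhg1 and Gas5 over the 6 libraries were the nearest to each other of the 36 pairs of members (root-mean-square difference 0.067 in centred log2 CPM), followed by those of Rmrp and Rpph1 (0.068). Genes outside the 9 lay nearer to each of them. Examples are Arhgef25 to Snhg1 (0.018), Wdr11 to Gas5 (0.021), Hist1h1e to Rmrp (0.018) and Fam53c to Rpph1 (0.015). The ratio of Gas5 to Snhg1 counts was 1.84, 1.63 and 1.83 in Ube3d-KO, against 1.79, 1.72 and 1.87 in WT (exact permutation p = 0.80, adjusted p = 0.80). The 2 counts do not cover the same parts of the genes. The listed Gas5 exons hold 75.7% of its span, with 6 of the 10 entries of its span that GENCODE types as snoRNA genes inside them, so the Gas5 count takes in intron and snoRNA sequence. The listed Snhg1 exons hold 16.8% of the span, and none of its 8 such entries lies in them. Snord22, in an intron of Snhg1, has a row of its own and fell with a log2 change of −0.16 (SE 0.05, edgeR adjusted p = 0.0071), to 40.0 ± 4.1 CPM in Ube3d-KO against 44.5 ± 1.8 CPM in WT. Snord47, in an intron of Gas5, had 27 to 41 counts in Ube3d-KO and 34 to 44 in WT (log2 −0.16, edgeR adjusted p = 0.586).

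Of 32 other snoRNA host genes tested, 6 rose and 12 fell (median −0.03), and 6 rose and 11 fell without WT replicate 2 (median −0.05). The 6 that rose over all 6 libraries are noncoding hosts, namely Snhg4, Snhg10, Snhg8, Dancr, Snhg20 and Snhg3. Snhg10 and Scarna13, named above, share a locus. Snhg4 rose 1.66-fold (log2 0.73, SE 0.05), to 53.2 ± 3.6 CPM in Ube3d-KO against 31.7 ± 1.0 CPM in WT, and Snhg8, on chromosome 3, rose 1.41-fold (log2 0.49, SE 0.04). Of the 12 that fell, the noncoding hosts were Snhg12 (log2 −0.15) and Snhg14 (log2 −0.46), whose call was lost without WT replicate 2 (edgeR adjusted p = 0.0622), and the others code for proteins. Nop56 fell 1.45-fold, the chaperone genes Hspa9 and Hspa8 1.27-fold and 1.20-fold, and Ncl, which encodes nucleolin, by 0.16 on the log2 scale. Whether noncoding and coding hosts differ was not tested.

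Gas5 and Snhg1 RNAs are known targets of nonsense-mediated decay. Of 18 tested factors of that pathway, 5 rose and 7 fell (median 0.01), beside 30.3% and 31.2% of all tested genes. Without WT replicate 2, 4 rose and 7 fell (median −0.02), beside 28.5% and 29.8%. Upf1, the helicase at its centre, fell 1.23-fold (log2 −0.30, SE 0.03), to 117 ± 5.2 CPM in Ube3d-KO against 143 ± 3.6 CPM in WT. Magohb fell 1.29-fold and Magoh 1.17-fold, and Rbm8a, which is on chromosome 3, rose with a log2 change of 0.20 (SE 0.04).

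Other nuclear long noncoding RNAs had 8 genes higher and 4 lower of 20 tested (median 0.08), and 10 higher and 3 lower without WT replicate 2 (median 0.19). These counts and medians include Ptprv (log2 1.42, SE 0.33), called higher both ways. Ptprv is a receptor tyrosine phosphatase gene and not a long noncoding RNA. Pvt1 rose 1.46-fold (log2 0.54, SE 0.06), to 30.6 ± 1.1 CPM in Ube3d-KO against 20.8 ± 2.2 CPM in WT. The antisense RNA Nespas rose 1.59-fold and Jpx, an RNA of the X inactivation centre, 1.72-fold. Mirg, a microRNA host of the Dlk1-Meg3 domain, rose 3.10-fold on few reads, with 28, 18 and 46 counts in Ube3d-KO against 11, 9 and 9 in WT. The gene listed as 2900097C17Rik, on chromosome 2, fell 1.28-fold (log2 −0.35, SE 0.03), to 272 ± 2.6 CPM in Ube3d-KO against 345 ± 14.1 CPM in WT.

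**Figure D5:**
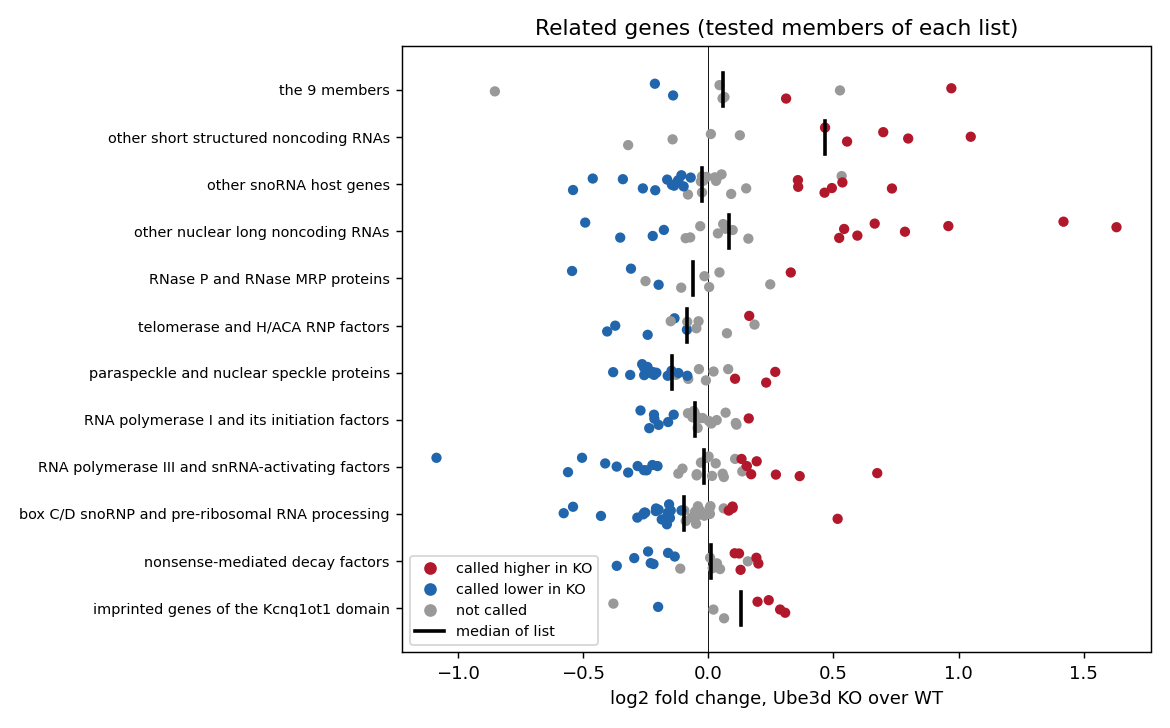
Log2 fold change, Ube3d-KO over WT, of the 9 RNAs and of the tested genes of each related list, with genes called higher in red, called lower in blue, not called in grey and the list median as a black line. The medians run from −0.15 for paraspeckle and nuclear speckle proteins to 0.47 for other short structured noncoding RNAs. The points of other nuclear long noncoding RNAs include Ptprv, a receptor tyrosine phosphatase gene.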

How the data were processed

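The authors deposited whole-number read counts per gene, with exon coordinates, for 6 libraries of total RNA, made with a stranded kit and depletion of ribosomal RNA per the labels' protocols. The submitters' processing notes list STAR 2.6.1d, featureCounts 1.6.3 and the mm10 and GRCm38 genome names without saying which step used each. The sources used here do not give the strand setting or how reads with several alignments were treated. A second deposited count table, of regions downstream of genes, carries no names and was not used here.

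Members and lists were chosen with earlier results of these data known. The test was edgeR's quasi-likelihood F test (version 4.0.16, R 4.3.3) with genotype as the sole term, TMM scaling and a robust fit. The filterByExpr defaults kept genes at the CPM equivalent to 10 counts in at least 3 libraries, with 15 counts in all. Benjamini-Hochberg adjustment of two-sided p-values ran over all 12947 tested genes. The SE was taken from the log2 fold change and F. The 95% intervals use the t quantile at each gene's total degrees of freedom. These include degrees of freedom borrowed across genes (67.9 in total for Terc, 4.20 for Neat1). CPM divides counts by a library's total. Within a genotype, pairs of libraries differed by more than sampling noise. The chi-square per gene was 2.05 to 2.48 in Ube3d-KO and 4.28 to 6.50 in WT. This cannot show that the libraries came from separate cultures. Each library was counted as 1 replicate. Single values were compared by exact permutation.

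Named genes were the 9 members, genes that overlap them or lie nearest on each side, Ube3d, and the 2 genes of nearest profile. The rule also named, in each list, up to 5 tested genes with the lowest adjusted p. Other genes were named after their values were seen, and some genes that the rule names are not reported here. Lists were described by counts and medians, with no set test. Alternatives were RLE size factors, 2 other filters, DESeq2 1.42.0, limma-voom (limma 3.58.1), the replicate number as a block, library totals without Rn45s, and each library left out. Tables and plots were made in Python 3.11.15.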

Additional observations from a re-analysis of the deposited data

How the results depend on the processing

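Over the alternatives, Terc and Rpph1 kept their direction and call in all 13. The Rn45s call was lost with no filter on low counts (log2 0.30, adjusted p = 0.0690), and with 1 library left out its log2 change ran from 0.24 to 0.40. The Rmrp call was lost with DESeq2 (log2 −0.14), and with 1 library left out the log2 change ran from −0.18 to −0.091. Neat1 passed the threshold with limma-voom alone (log2 −0.68, adjusted p = 0.0014), and with 1 library left out ran from −1.16 to −0.17. Kcnq1ot1 passed it with DESeq2 (log2 0.53) and limma-voom (log2 0.54, adjusted p = 1.2e-08), and with 1 library left out ran from 0.43 to 0.72. With 1 library left out, Malat1 ran from −0.043 to 0.21, turning negative without WT replicate 1, Snhg1 from 0.014 to 0.13, and Gas5 from −0.0059 to 0.073, also turning negative without WT replicate 1. The difference in the log2 ratio of Gas5 to Snhg1 was −0.02 and ran from −0.051 to 0.035, positive without Ube3d-KO replicate 2 (0.0354) and without WT replicate 3 (0.0089). The cause was not tested.

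Same-numbered libraries did not deviate together (correlations of −0.03 for every number), and no library correlated best with its own number, so the numbers were not taken as pairs. With the replicate number as a block, 7816 genes were called in place of 7955, and no member's call changed (Kcnq1ot1 log2 0.54, adjusted p = 0.197, and Rn45s log2 0.32, adjusted p = 1.6e-13). The count of called genes ran from 7027 with DESeq2 to 8196 with no filter. With 165 counts in its lowest library, Terc rests on the fewest reads of the 9.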

Other observations

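Among the other nuclear long noncoding RNAs as listed, Ptprv included, WT replicate 2 was above both other WT libraries in 14 of 20 tested genes. The median was 1.19-fold over the mean of WT replicates 1 and 3. That order also held in 12 of 23 protein genes of paraspeckles and nuclear speckles and 10 of 21 of RNA polymerase I. It held in 12 of 38 of the box C/D and ribosomal RNA processing list. The share over all tested genes was not worked out. Dnm3os, the gene whose profile was nearest to that of Malat1 (root-mean-square difference 0.057), was at 1.34-fold in that library, and Firre at 1.33-fold. The genes whose profile was nearest to that of Neat1 were Ccnl2 and Gabbr1, at 1.34-fold and 1.37-fold, though neither was close to it (root-mean-square differences of 0.41 and 0.43). Short structured RNAs did not stand out in that library, with a median of 0.988-fold over 9 tested genes. These genes were looked at after the values of Neat1 had been seen.

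The nearest profiles to Rmrp were those of the histone gene Hist1h1e (root-mean-square difference 0.018) and of Glrx5 (0.020), to Rpph1 those of Fam53c (0.015) and Mex3d (0.016), and to Rn45s those of Cnnm2 (0.021) and the histone gene Hist1h4h (0.033). Those nearest to Kcnq1ot1 were Zfyve27 (0.085), which rose with a log2 change of 0.43 (SE 0.08), and Masp2 (0.098). Snhg1 was nearest to Arhgef25 (0.018) and Mast3 (0.030), and Gas5 to Wdr11 (0.021) and Kat5 (0.025). Near Gas5, Zbtb37 lies 907 bases from its start on the other strand and rose with a log2 change of 0.25 (SE 0.08, edgeR adjusted p = 0.0066). Slc3a2, 118 bases from the start of Snhg1 on the other strand, had a log2 change of −0.05 (edgeR adjusted p = 0.239).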
